A study of Chlamydomonas reinhardtii with 8 samples.

Results

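Transcript levels of the green alga Chlamydomonas reinhardtii at 3 h after zinc was returned to zinc-deficient cultures were compared with those at 1.5 h, across all genes whose value carried an OK status at both times. Of 17737 genes in the table, 17706 met that rule. The other 31 did not, and 2 of them carried a status for too much data at 1.5 h, where they are listed at 0. A further 6230 genes had a mean FPKM under 1 over the 8 conditions and were not called, which left 11476 genes. FPKM, a measure of sequenced fragments per gene, corrects for the length of a transcript and the size of a library.

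The strain was CC-4532, grown in Tris-acetate-phosphate (TAP) medium, which supplies acetate as a carbon source, with shaking under continuous light. Deficient cells had passed through 2 successive cultures with no zinc supplement, and ZnCl2 at 2.5 µM was then returned. The cells at 1.5 h and at 3 h therefore share strain, medium, deficiency history and zinc dose and, per the labels, differ in time alone. The other conditions were the deficient cells at 0 h, the resupplied cells at 4.5, 12 and 24 h, and zinc-replete cells labelled early and late. The design text states 4 biological replicates per condition, while the table gives 1 FPKM value with a lower and an upper bound. No difference below has a replicate check, and none has a p-value. No culture kept without zinc to 1.5 or 3 h was analysed here, so returned zinc and elapsed time cannot be told apart.

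Zinc is a cofactor of many enzymes and transcription factors, among them most carbonic anhydrases, which interconvert CO2 and bicarbonate. Chlamydomonas cells short of zinc raise transcripts of ZIP-family zinc importers such as ZRT1 and ZRT3, and the return of zinc ends that demand. The alga also keeps a carbon-concentrating mechanism of bicarbonate transporters and carbonic anhydrases that is switched on at low CO2, and a copper-responsive set of genes led by CYC6, which encodes cytochrome c6, a stand-in for the copper protein plastocyanin.

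From 1.5 to 3 h, 494 genes rose (4.30% of those tested) and 82 fell (0.715%). Both shares are the background for each list count below. A gene was called where the log2 ratio of FPKM + 1 was at least 1 in size and the deposited bounds did not overlap. Only such genes are said to have risen or fallen. Together these were 576 genes (5.02%). Risen genes included many of protein entry into the endoplasmic reticulum (ER), vesicle coats, the proteasome, chlorophyll synthesis, DNA replication and plastid division, of which the ER, coat, proteasome subunit, MCM and plastid division groups were picked out after values were seen. Fallen genes included CYC6, the mitochondrial carbonic anhydrases and several genes of low CO2. In 30 genes the rise was at least 4-fold on this scale, and in 13 genes the fall was. The median log2 ratio over all tested genes was 0.04, and the central 95% of genes ran from -0.78 to 1.21.

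Total FPKM was 781530 at 1.5 h and 882793 at 3 h, and the median half-width of the bounds was 17.1% and 18.5% of the value. FPKM gives shares of the RNA pool. Fewer cells expressing a gene and less of its RNA per cell cannot be told apart in such cultures. The direction split of the calls depended on the scaling. Of all calls, 85.8% were rises as deposited, 77.8% after median-of-ratios scaling (416 up and 119 down, or 3.62% and 1.04% of genes) and 64.4% after setting both totals equal (335 up and 185 down, or 2.92% and 1.61%). Equal totals shifted the median of all genes by -0.13 and median-of-ratios scaling by -0.05. With equal totals 68 of 174 risen and 0 of 21 fallen genes with a symbol lost their call. The threshold cut through a continuous range, since 109 of the risen genes lay within 0.1 log2 units above it and 134 uncalled genes within 0.1 below it. On the side of the falls these numbers were 24 and 48.

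**Figure D1:**
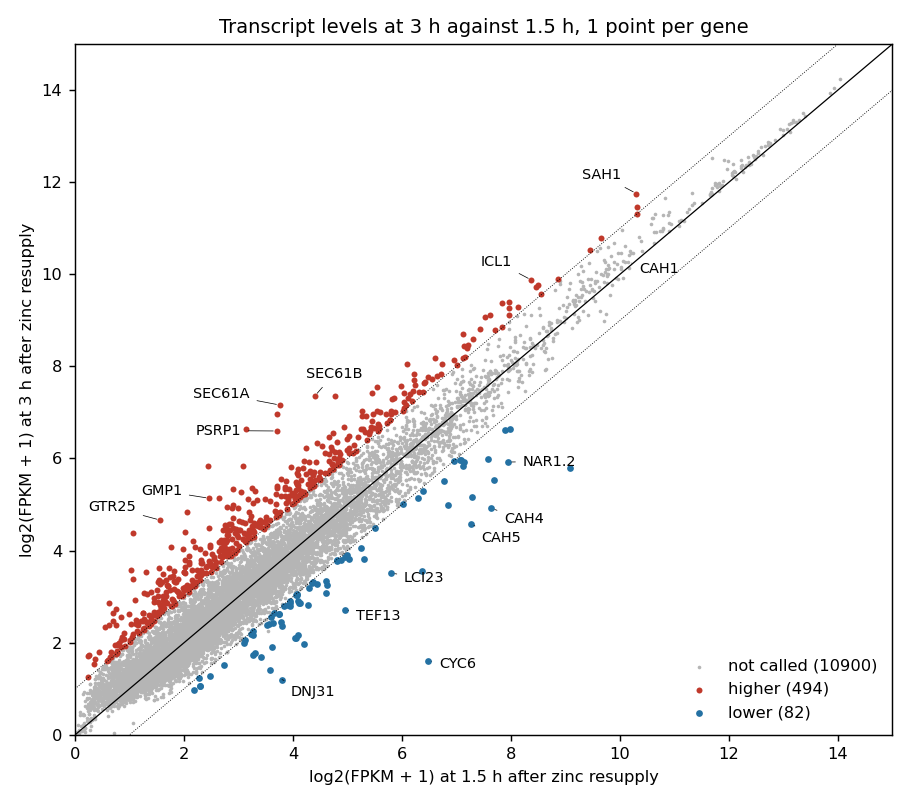
Each point is 1 of the 11476 genes tested, with log2(FPKM + 1) at 1.5 h on the x axis and at 3 h on the y axis. The solid line marks equal levels and the dotted lines a log2 ratio of 1 or -1. The 494 risen genes are red, the 82 fallen genes blue, and CYC6 lies farthest below the line.

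The step was of middle size among its neighbours. In the step before it, from 0 to 1.5 h, 1371 genes were higher (12.0%) and 1059 lower (9.24%) of 11463 tested. The excess of rises there depended on the scaling, with 1260 and 1225 after median-of-ratios scaling and 1246 and 1298 with equal totals. In the step after it, from 3 to 4.5 h, 29 were higher (0.253%) and 11 lower (0.0958%) of 11481, or 40 and 8 with equal totals. Each of these steps shares a condition with the step from 1.5 to 3 h, so no overlap of their gene lists is given, and levels are set side by side instead.

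**Figure D2:**
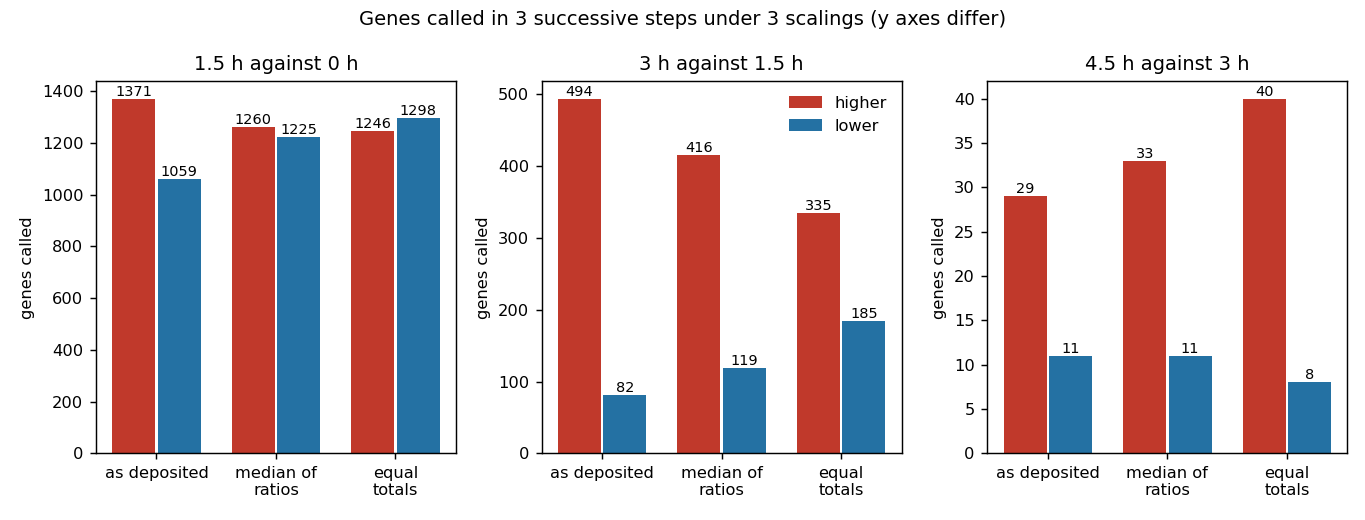
Bars give the number of genes called higher (red) and lower (blue) in 3 successive steps, each with the values as deposited, after median-of-ratios scaling and after setting total FPKM equal. The y axes differ between panels and start at 0. Rises outnumber falls from 1.5 to 3 h under each scaling, from 494 against 82 to 335 against 185.

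Genes of the entry of proteins into the ER held the largest rise of a gene with a symbol. Of 9 tested members, 7 rose and 0 fell, with a median log2 ratio of 1.22. The 3 subunits of the SEC61 channel, through which new proteins cross the ER membrane, rose together. SEC61A (chromosome 3, 3911667 to 3914524 in the deposited coordinates) stood at 125 FPKM in early and 112 in late replete cells, at 67.1 in deficiency, and at 12.5 FPKM at 1.5 h, 142 at 3 h, 234 at 4.5 h, 142 at 12 h and 109 at 24 h. Its 1.5 h level was the lowest of the 8 conditions and the bounds there (10.6 to 14.5) lay far below those at 3 h (116 to 168). The 3 h level was 11.3 times the 1.5 h level, a log2 ratio of 3.40.

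SEC61B, a small subunit of the channel, went from 88.6 FPKM at 0 h to 20.1 at 1.5 h, 163 at 3 h and 248 at 4.5 h, a log2 ratio of 2.96 for the step. SEC61G, the other small subunit, went from 140 to 26.3, 163 and 319 FPKM at the same times, a log2 ratio of 2.59. The order of the times was the same in these subunits, with the lowest level at 1.5 h and the highest at 4.5 h. The choice of risen genes favours a low 1.5 h level by itself, so nothing is read from such dips. DAD1, a subunit of the oligosaccharyltransferase that attaches sugars to entering proteins, rose from 24.4 to 67.8 FPKM. SPC18, SPC22 and SPC25 of the signal peptidase complex rose from 7.83 to 19.6, from 11.7 to 28.2 and from 8.72 to 20.1 FPKM. CRT2, the ER chaperone calreticulin, stood at 269 FPKM at 0 h, 66.8 at 1.5 h, 265 at 3 h and 501 at 4.5 h (log2 ratio 1.97). Of 6 tested ER folding genes 2 rose, CRT2 and the disulfide isomerase PDI5 (18.8 to 45.8 FPKM), and the other 4 had ratios from 0.38 to 0.75.

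The protein coats of vesicles between the ER and the Golgi rose in the same interval. Of 8 tested COPII genes, whose coat buds from the ER, 5 rose and 0 fell (median 1.07), and of 8 COPI genes, whose coat serves the return path, 6 rose and 0 fell (median 1.09). SEC13, of the outer COPII coat, went from 6.43 FPKM at 1.5 h to 25.3 at 3 h (log2 ratio 1.82), and its partner SEC31 went from 2.79 to 7.27. SEC23A, of the inner coat, rose from 7.97 to 19.3 FPKM. COPB1 and COPA1, both coatomer subunits, rose from 5.93 to 19.4 and from 5.83 to 17.2 FPKM, and COPB2 and COPG1 by log2 ratios of 1.19 and 1.13. The wider list of 83 trafficking genes, which holds the SEC61 and coat genes, had 14 rises and 0 falls with a median of 0.27, so its rises were the SEC61 and coat genes themselves. With equal totals 3 of the COPI and 2 of the COPII genes were called.

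Subunits of the proteasome, which degrades ubiquitin-tagged proteins, also rose. Of 21 tested subunits 8 rose, beside 4.30% of all genes, and 0 fell. The ratio of each of the 21 was above 0, from 0.52 to 1.42 (median 0.98). RPN10, a ubiquitin receptor of the regulatory particle, stood at 26.5 FPKM at 0 h, 7.09 at 1.5 h, 20.7 at 3 h and 24.8 at 4.5 h (log2 ratio 1.42). Subunits of the core ring moved alike, with POA5 going from 18.9 to 51.6, POA3 from 19.8 to 51.3 and POA1 from 31.5 to 74.3 FPKM. Their 0 h levels were 51.3, 49.7 and 90.4 FPKM, so the 3 h values lay close to or below those of deficiency. In the wider list of 33 proteasome and ubiquitin genes the same count of 8 rose (median 0.85), and with equal totals 5 did.

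**Figure D3:**
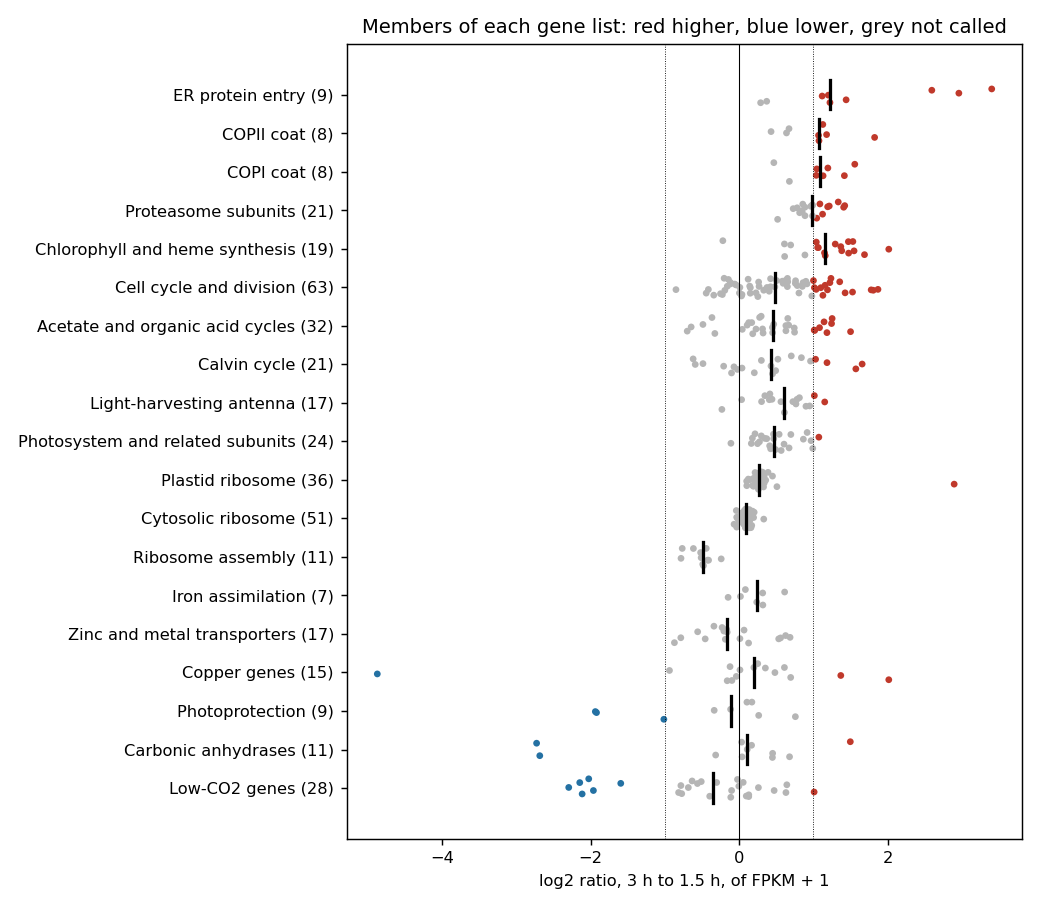
Each point is a tested member of a gene list, placed by its log2 ratio of 3 h to 1.5 h of FPKM + 1, with the number tested in brackets. Red points rose, blue points fell, grey points were not called, black bars are list medians and the dotted lines mark ratios of -1 and 1; vertical scatter within a row carries no value. Medians of the ER entry, coat and chlorophyll lists lie above 1, while that of the cytosolic ribosome is 0.09.

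The pathway from glutamate to heme and chlorophyll rose along most of its length. Of 19 tested genes 14 rose and 0 fell, with a median log2 ratio of 1.16. CPX1, coproporphyrinogen III oxidase, stood at 147 FPKM in early and 97.8 in late replete cells, at 178 at 0 h, and at 45.4, 186, 271, 154 and 175 FPKM at the 5 resupply times. Its 1.5 h level was the lowest of the 8, and the 3 h level was 4.11 times higher (log2 ratio 2.01). PPX1, protoporphyrinogen oxidase and the next step of the pathway, had no such dip between 0 and 1.5 h (17.9 and 16.0 FPKM) and stood at 53.8 FPKM at 3 h. UPD2, a uroporphyrinogen decarboxylase, went from 25.1 to 75.2 FPKM.

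POR1, the light-dependent protochlorophyllide reductase, stood at 242 and 212 FPKM in the replete conditions, 201 at 0 h, 227 at 1.5 h, 659 at 3 h, 590 at 4.5 h, 281 at 12 h and 289 at 24 h. Its bounds at 3 h (527 to 790) lay above the point values of the conditions other than 4.5 h. In the magnesium chelatase, which sends the pathway toward chlorophyll, CHLD went from 31.6 to 89.4 and CHLI1 from 171 to 448 FPKM, and the chelatase activator GUN4 from 25.1 to 71.5 FPKM. The 5 members not called were DVR1 (0.61), HMO1 (0.89), HMO2 (-0.22), CPX2 (0.69) and CTH1 (0.61). With equal totals 9 members were called.

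Among genes of the photosynthetic machinery, rises were seen in part of each group, beside 4.30% of all genes. Of 17 tested antenna genes 2 rose, LHCB4 from 1268 to 2819 FPKM and LHCB5 from 1264 to 2550 FPKM, the minor antenna proteins of photosystem II. The antenna median was 0.61 with 16 of 17 ratios above 0, and with equal totals 0 members were called. Of 24 nuclear-encoded subunits of the photosystems, cytochrome complex and ATP synthase, 1 rose, PSBY2, from 137 to 290 FPKM (median 0.46). In the Calvin cycle, which fixes CO2, 4 of 21 tested genes rose and 0 fell (median 0.43). PGK1, phosphoglycerate kinase, went from 37.4 to 120 FPKM and on to 386 at 4.5 h, FBP2, a fructose-bisphosphatase, from 4.19 to 14.4, TPI1, triosephosphate isomerase, from 27.6 to 63.9, and PRK1, phosphoribulokinase, from 374 to 763 FPKM. Among 27 genes of organelle protein import and insertion, a list not limited to the plastid, 3 rose. They included ALB3, an insertase of antenna proteins (5.37 to 17.8 FPKM), and SRP43, which guides antenna proteins to the membrane (8.02 to 18.5 FPKM). TIM21 of mitochondrial import also rose (2.54 to 9.12 FPKM). Of 104 genes that the table names for their conservation in the green lineage, 11 rose and 0 fell, and CPLD44 led them with 17.8 FPKM at 1.5 h and 74.0 at 3 h.

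Genes of DNA replication and of cell and plastid division rose from low levels. Of 63 tested cell cycle genes 15 rose, beside 4.30% of all genes, and 0 fell, with a list median of 0.48. With equal totals 10 rose and 1 fell. RIR2, the small subunit of ribonucleotide reductase, which makes the building blocks of DNA, stood at 44.3 and 59.9 FPKM in the replete conditions, at 2.98 at 0 h, 3.6 at 1.5 h, 15.8 at 3 h, 29.7 at 4.5 h, 34.7 at 12 h and 37 at 24 h. Its level at 3 h was above those at 0 and 1.5 h and below the other 5. RIR1 and RIR3, the other ribonucleotide reductase genes of the list, were not called (log2 ratios 0.25 and -0.85). CDKB1, a mitotic cyclin-dependent kinase, went from 3.89 at 0 h and 3.05 at 1.5 h to 12.9 FPKM at 3 h and 26.2 at 4.5 h.

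Of 6 tested MCM genes, the subunits of the replicative helicase, 5 rose, and MCM2 went from 0.991 FPKM at 0 h to 2.17 at 1.5 h and 7.52 at 3 h. MCM6, MCM4 and MCM7 rose from 2.18 to 7.12, from 1.56 to 5.02 and from 3.44 to 8.51 FPKM. Of 5 plastid division genes 4 rose and the fifth had a ratio of 0.98. MIND1, which helps place the division site, went from 5.72 to 22.5 FPKM (1.81), FTSZ2, a division ring protein, from 2.25 to 8.36 (1.53), MINE1 from 3.86 to 10.3 (1.22) and FTSZ1 from 7.48 to 17.9 FPKM (1.16). Such low levels make the count depend on the pseudocount, with 26 cell cycle genes risen at 0.1 FPKM and 3 at 5 FPKM.

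Of 7 tubulin genes 3 rose, with TUB2 going from 20.4 to 60.1, TUB1 from 123 to 281 and TUA1 from 208 to 443 FPKM, and since tubulin copies are nearly identical, reads may be shared between them. The flagellar lists held 3 rises among 193 flagella-associated proteins (median 0.35) and 3 among 97 genes of dyneins, intraflagellar transport and related functions (median 0.38). Both counts are smaller shares than the 4.30% risen of all genes, whose median was 0.04. Of the flagellar ratios, 181 of 193 and 85 of 97 were above 0.

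Genes of acetate use rose as well. Of 32 tested genes of acetate assimilation, the citric acid cycle and the glyoxylate cycle, 8 rose and 0 fell (median 0.45). Over all genes 4.30% rose. ICL1, isocitrate lyase of the glyoxylate cycle, stood at 2707 and 3082 FPKM in the replete conditions, 191 at 0 h, 331 at 1.5 h, 938 at 3 h, 1401 at 4.5 h, 2355 at 12 h and 2976 at 24 h, so each later time was higher than the one before it. MAS1, malate synthase of the same cycle, went from 84.5 to 203 FPKM, PCK1, phosphoenolpyruvate carboxykinase, from 70.2 to 168, and ACS3, an acetyl-CoA synthetase, from 92.9 to 212 FPKM. With equal totals 4 of the 8 were called.

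Other metabolic rises were scattered over small groups, beside 4.30% risen of all genes. With equal totals they numbered 2 among amino acid, 1 among cofactor, 3 among lipid, 2 among antioxidant and 1 among protease genes. Of 41 amino acid genes 3 rose, all of 1-carbon metabolism, namely SAH1, S-adenosylhomocysteine hydrolase (1262 to 3448 FPKM), SHMT2, serine hydroxymethyltransferase (249 to 614 FPKM), and GCSP of the glycine cleavage system (66.6 to 142 FPKM). SAH1 stood at 1700 FPKM in early and 1062 in late replete cells, 1660 at 0 h, 2518 at 4.5 h, 1105 at 12 h and 1637 at 24 h, so 3 h held its highest level. Of 11 cofactor genes 2 rose, the thiamine synthesis genes THIC (67.8 to 158 FPKM) and THI4 (800 to 1759 FPKM). Of 20 lipid genes 4 rose, with HAD1 of fatty acid synthesis going from 5.98 to 20.9, BTA1 of betaine lipid synthesis from 18.6 to 59.9, CFA2 from 5.22 to 14.9 and SQD1 of sulfolipid synthesis from 31.4 to 68.8 FPKM. Of 46 antioxidant genes 4 rose, led by the peroxiredoxin PRX6 (39.1 to 94.0 FPKM) and CAT1, catalase (41.4 to 95.8 FPKM). Of 16 protease genes 4 rose, led by RBD2, of the rhomboid family, which went from 39.5 to 120 FPKM and on to 361 at 4.5 h.

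**Figure D4:**
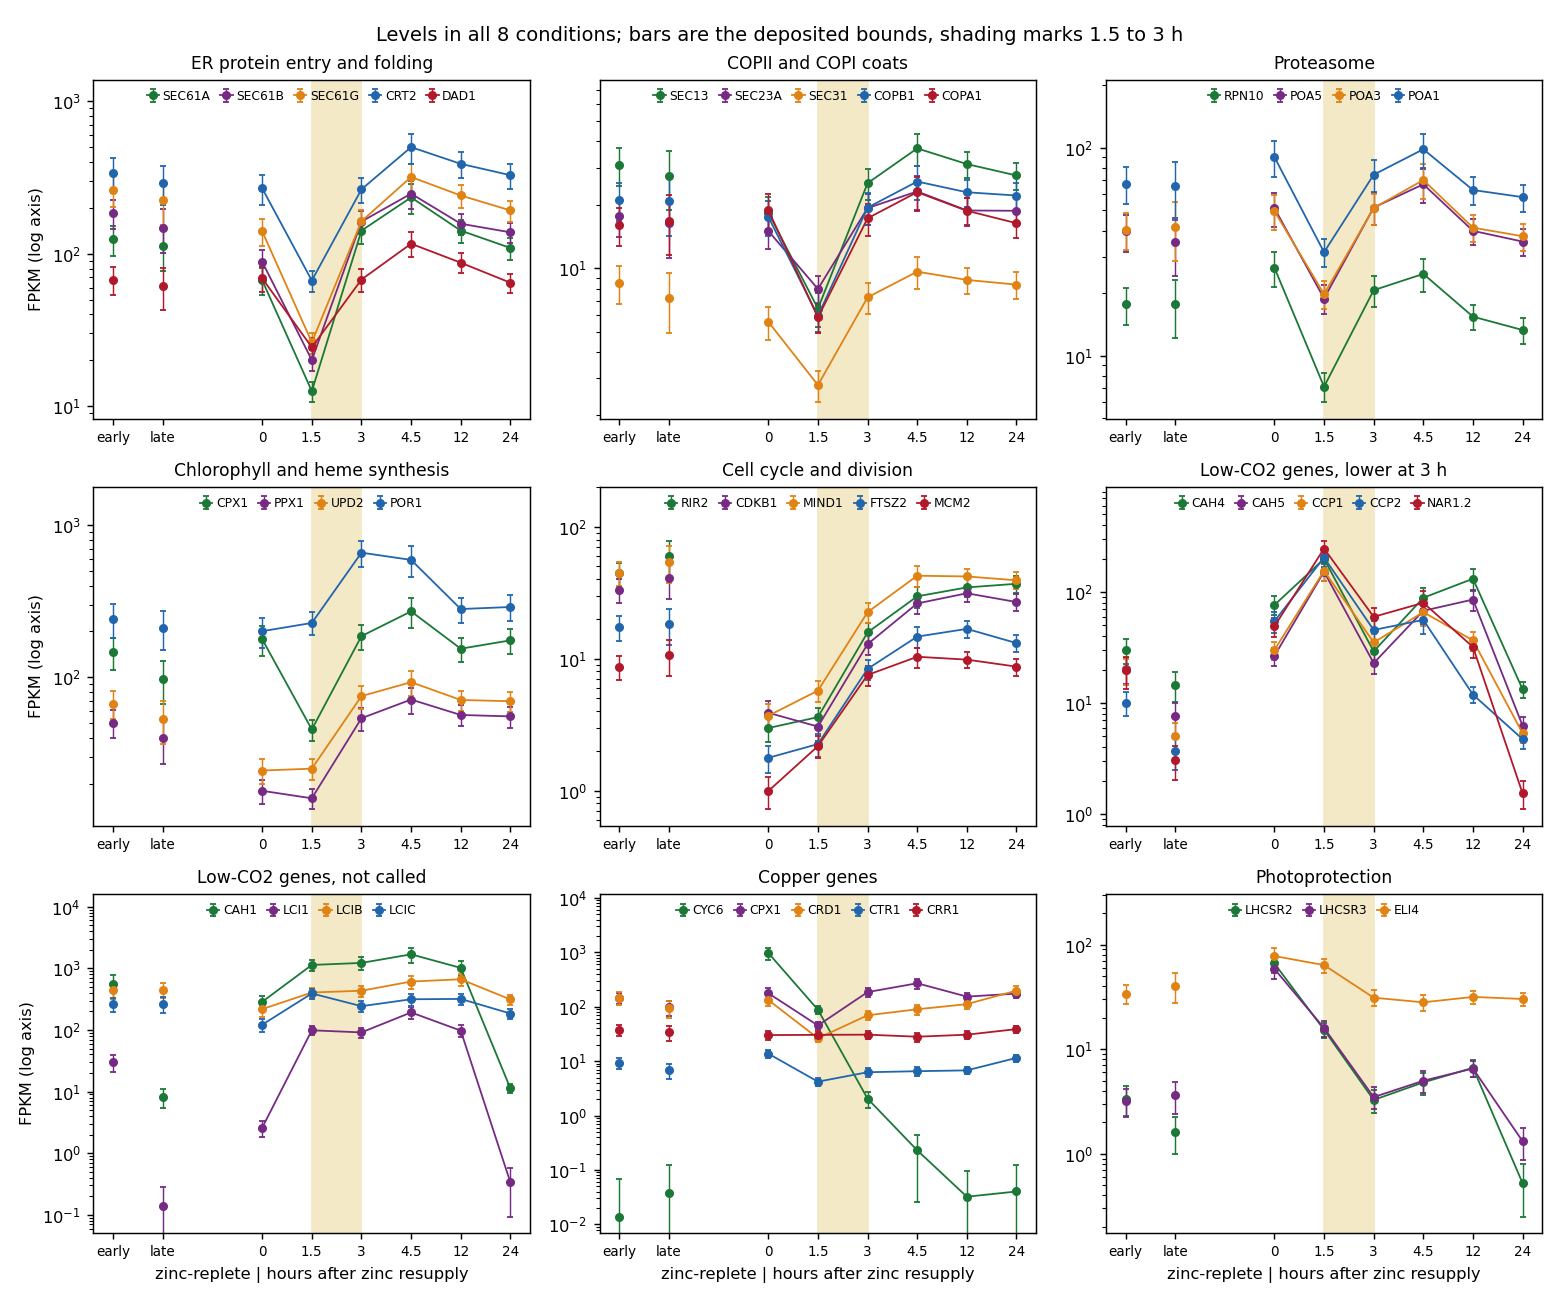
FPKM on log axes that differ between panels, with times evenly spaced and not to scale, for named genes in the early and late replete conditions and at 0 to 24 h of resupply; bars are the deposited bounds, bars that run off the lower edge have a lower bound of 0, and shading marks 1.5 to 3 h. ER, coat and proteasome genes are lowest at 1.5 h, and CAH4, CAH5, CCP1, CCP2 and NAR1.2 peak at 1.5 h among 0, 1.5 and 3 h. The choice of called genes by their 1.5 and 3 h values favours such dips and peaks by itself. RIR2 and CDKB1 have 0 h levels near those of 1.5 h, while MCM2 is already higher at 1.5 h than at 0 h.

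Low-CO2 genes were among the large falls, while several of the most abundant of them were not called. Of the 13 falls of at least 4-fold, 4 were of the low-CO2 list (LCI23, CCP1, CCP2 and NAR1.2) and 2 were CAH4 and CAH5. Of 28 tested low-CO2 genes 6 fell and 1, LCI26, rose, with a median of -0.35. Over all genes 0.715% fell and 4.30% rose. LCI26 (1.42 to 3.87 FPKM, 1.01) was not called under either rescaling. CCP1 and CCP2, a closely similar pair of low-CO2 carrier proteins, stood at 30.0 and 54.4 FPKM at 0 h, at 155 and 204 at 1.5 h and at 35.1 and 45.4 at 3 h (log2 ratios -2.11 and -2.15). At 4.5 h they stood at 65.8 and 56.0 FPKM. NAR1.2, also called LCIA, a chloroplast envelope channel for bicarbonate, stood at 19.7 FPKM in early and 3.07 in late replete cells, 49.1 at 0 h, and 246, 59.7, 79.9, 32.0 and 1.53 FPKM at the 5 resupply times (-2.02). The 1.5 h level was the highest of the 8 and the 24 h level the lowest. LCI23, LCID and LCI31 fell by log2 ratios of -2.29, -1.96 and -1.59.

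CAH4 and CAH5, nearly identical beta-type carbonic anhydrases of the mitochondria, had the largest falls with a symbol after CYC6. CAH4 stood at 30.0 and 14.7 FPKM in the replete conditions, 76.3 at 0 h, and 198, 29.1, 88.6, 132 and 13.3 FPKM at the 5 resupply times. CAH5 stood at 20.2, 7.59 and 26.5 FPKM in the first 3 of these conditions and at 152, 22.9, 67.6, 85.4 and 6.25 FPKM at the resupply times. Both were high at 1.5 h, low at 3 h and high again at 4.5 and 12 h. They were called higher at 4.5 h than at 3 h (log2 ratios 1.57 and 1.52). Their choice for a low 3 h value beside that at 1.5 h favours this low and the later call by itself, so nothing is read from either. The fall was 6.81-fold for CAH4 and 6.66-fold for CAH5.

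These genes lie in pairs. CAH5 and CAH4 occupy chromosome 5 from 768025 to 774699, with 2065 bases and no other gene start between them. CCP2 and LCID are 91 bases apart on chromosome 4 (2617297 to 2624280), and LCIE and CCP1 are 128 bases apart farther along the same chromosome (2687849 to 2693793). LCIE had a mean under 1 FPKM and was not tested. Reads can be split between near-identical copies during counting, so the pairs CAH4 and CAH5 and CCP1 and CCP2 are uncertain as single genes.

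Other low-CO2 genes stayed within the threshold. CAH1, the periplasmic carbonic anhydrase, stood at 286 FPKM at 0 h, 1135 at 1.5 h, 1224 at 3 h and 1688 at 4.5 h (log2 ratio for the step 0.11). LCI1, an inorganic carbon transporter of the plasma membrane, stood at 2.59, 98.8, 91.3 and 192 FPKM at these times (-0.11). LCIB and LCIC, partner proteins of the chloroplast, went from 405 to 433 and from 391 to 243 FPKM, and LCR1, a regulator of low-CO2 genes, from 14.7 to 8.18 FPKM (-0.77). The genes called higher from 0 to 1.5 h thus included CAH1, LCI1, CAH4, CAH5, CCP1, CCP2 and NAR1.2, of which CAH1 and LCI1 were not lower at 3 h by this rule. CAH2, a periplasmic carbonic anhydrase known to be expressed at high CO2, rose from 7.63 to 23.4 FPKM (1.50), after 1.54 FPKM at 0 h. Of 11 tested carbonic anhydrase genes these were 1 rise and 2 falls, and the others had ratios from -0.32 (CAH3) to 0.68 (CAH8).

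Copper genes moved in opposite directions, with 2 rises and 1 fall among 15 tested, beside 4.30% risen and 0.715% fallen of all genes. CYC6 had the largest change of any gene. It stood at 0.0139 and 0.0372 FPKM in the replete conditions, at 976 at 0 h, and at 88.1, 2.05, 0.230, 0.0323 and 0.0402 FPKM at the 5 resupply times. The fall from 1.5 to 3 h was 43.0-fold (log2 ratio -4.87), with bounds of 74.4 to 102 and 1.39 to 2.71, and it followed a fall from 0 to 1.5 h and preceded one from 3 to 4.5 h. CPX1 and CRD1 belong to the same copper-responsive set and rose. CRD1, an aerobic cyclase of chlorophyll synthesis, stood at 134 FPKM at 0 h, 26.4 at 1.5 h, 69.8 at 3 h and 90.0 at 4.5 h (1.37), and CTH1, its counterpart in copper-replete cells, went from 308 to 471 FPKM (0.61, not called). CRR1, the transcription factor of the set, stood at 30.5 and 30.7 FPKM at 1.5 and 3 h. The copper transporters CTR1 (4.20 to 6.27 FPKM), CTR2 (0.906 to 0.781) and CTR3 (9.16 to 8.09) were not called. HYD3 had a ratio of -0.94 and passed the threshold with equal totals.

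Of 9 tested photoprotection genes 3 fell and 0 rose, beside 0.715% fallen and 4.30% risen of all genes. LHCSR2 and LHCSR3, near-identical antenna-like proteins that dissipate excess light energy, stood at 66.1 and 58.6 FPKM at 0 h, 15.3 and 16.0 at 1.5 h, 3.27 and 3.48 at 3 h and 4.81 and 4.99 at 4.5 h (log2 ratios -1.94 and -1.92). Their levels at 3 h were close to the early replete ones of 3.36 and 3.21 FPKM. They are neighbours on chromosome 8, from 1936019 to 1949669, and are uncertain as single genes. ELI4, an early light-induced protein, fell from 63.8 to 31.1 FPKM (-1.01).

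No member of the zinc list was called in this interval. All 17 tested zinc and metal transporters lay between -0.87 and 0.69, with a median of -0.17. ZRT1 went from 313 FPKM at 0 h to 7.00 at 1.5 h, 3.37 at 3 h and 1.47 at 4.5 h, and its ratio for the step of -0.87 became -1.01, past the threshold, with equal totals. ZRT3 went from 103 to 0.214 and 0.0813 FPKM at the first 3 of these times. ZRT2 went from 15.6 to 10.3 FPKM and ZRT5 from 15.2 to 8.42 (-0.56 and -0.79), and MTP1, of a metal tolerance family, from 6.08 to 9.42 FPKM after 69.4 at 0 h. From 0 to 1.5 h, ZRT1, ZRT2, ZRT3, ZRT5 and MTP1 had been called lower. Of 7 tested iron genes 0 were called, and the periplasmic iron-binding proteins FEA1 and FEA2 went from 384 to 453 and from 599 to 540 FPKM.

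Cytosolic and mitochondrial ribosomal protein genes stayed near the median of all genes of 0.04. Of 51 cytosolic ribosomal protein genes 0 were called and their ratios ran only from -0.07 to 0.33 (median 0.09, or -0.08 with equal totals). Of 37 mitochondrial ribosomal genes 0 were called (median 0.15, or -0.01 with equal totals). Of 36 plastid ribosomal genes 1 was called, PSRP1, a plastid ribosome-associated protein. PSRP1 stood at 56.9 FPKM at 0 h, 12.0 at 1.5 h, 95.8 at 3 h and 160 at 4.5 h (log2 ratio 2.89). The median of the plastid list was 0.27, with 36 of 36 ratios above 0, or 32 of 36 with equal totals. The 11 tested genes of ribosome assembly and ribosomal RNA processing had ratios below 0, from -0.78 to -0.24 (median -0.49), and 0 were called. Respiratory chain genes (83 tested, median 0.10, or -0.07 with equal totals), translation factors (28, -0.05), RNA polymerase subunits (16, -0.27) and starch genes (20, 0.21) held 0 calls as deposited, and of 84 chaperone genes 3 rose and 2 fell. The lists of fermentation (25 tested, 2 risen), carotenoids (11, 1 risen), nitrogen (20, 1 risen), purines and pyrimidines (12, 1 risen) and mating and cell wall (24, 1 risen) held 1 or 2 calls each, beside 4.30% risen of all genes. Those of histones (10 tested), channels (16), cyclic nucleotide signalling (41) and small heat shock proteins (4) held 0.

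Both fallen chaperone genes were J-domain proteins. DNJ31 went from 3.88 FPKM at 0 h to 12.9 at 1.5 h and 1.29 at 3 h (-2.60), and DNJ15 from 8.32 to 17.3 and 2.95 FPKM (-2.22). Of the 21 fallen genes with a symbol, LCI, CCP and CAH genes and NAR1.2 made up 8. TEF13 stood apart in its course, at 96.5 and 145 FPKM in the replete conditions and at 139, 29.9, 5.59, 6.83, 61.3 and 108 FPKM from 0 to 24 h. PTB12, of a phosphate transporter family, fell from 23.4 to 9.06 FPKM. It was the 1 fall among 26 tested genes of the phosphate and sulfate list, of which 4 rose (median -0.10). Over all genes 4.30% rose. With equal totals 1 rise and 1 fall of the list were called. PRM1 and PRM3, named as protein arginine methyltransferases, fell from 237 to 96.8 and from 44.4 to 21.6 FPKM, after 22.1 and 6.06 FPKM at 0 h. The remaining fallen genes with a symbol were LZY1B, AOF1 and ATM2, at log2 ratios from -1.21 to -1.13.

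Among the 12 largest rises with a symbol, the genes not yet described were GTR25 (1.96 to 24.3 FPKM, log2 ratio 3.09), GMP1 (4.52 to 34.1, 2.67), GTR22 (7.2 to 37.8, 2.24), ACL1 (1.46 to 10.6, 2.24) and UPT1 (42.8 to 170, 1.96). Like SEC61A, these 5 genes had lower levels at 1.5 h than at 0 h, which were 13.8, 41.3, 22.7, 16.2 and 181 FPKM in the same order. Their choice for a low 1.5 h value beside that at 3 h favours this by itself, so nothing is read from it.

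Most called genes had no symbol, 320 of the risen and 61 of the fallen. The largest rise was that of Cre05.g244950 (chromosome 5), which stood at 40.0 FPKM at 0 h, 7.80 at 1.5 h, 98.7 at 3 h and 170 at 4.5 h (a 12.7-fold rise). It was followed by g15196 on chromosome 14 (4.45 to 56.4 FPKM, 3.40). The largest fall was that of Cre07.g352000 (chromosome 7, 5616513 to 5622604), from 542 FPKM at 1.5 h to 54.2 at 3 h, 13.2 at 4.5 h and 2.52 at 12 h (-3.30). It lies 350 bases from ZRT1, and its 0 h value is listed at 0 with the status for too much data, a failed estimate. Cre02.g097800 fell from 81.1 to 10.8 FPKM (-2.80).

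The levels of the called genes in all 8 conditions were as follows. For the risen genes the median was 24.8 and 24.5 FPKM in early and late replete cells, 17.4 at 0 h, 7.03 at 1.5 h, 21.0 at 3 h, 28.4 at 4.5 h, 27.6 at 12 h and 23.9 at 24 h. The genes were chosen for a low 1.5 h value beside that at 3 h, which by itself favours a 1.5 h median below those of the other conditions, so nothing is read from that dip, and the same holds for the peak of the fallen genes. It also holds for single called genes described above as lowest or highest at 1.5 h, or as low or highest at 3 h. Fallen genes had medians of 3.61 and 2.41 FPKM in replete cells, 6.22 at 0 h, 16.9 at 1.5 h, 6.48 at 3 h, 5.03 at 4.5 h, 3.14 at 12 h and 3.65 at 24 h. Over all tested genes the median lay between 5.27 and 5.76 FPKM in the 8 conditions.

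Comparisons whose ratios and bounds use neither the 1.5 h nor the 3 h value placed many of these genes too. The filter on the mean FPKM over the 8 conditions does include both values. The risen genes were more abundant than all tested genes, with medians of 28.4 and 5.55 FPKM at 4.5 h. The pseudocount understates changes of low genes, and the shares of all genes below were not matched for level. Of the 494 risen genes, 201 (40.7%) were also called higher at 4.5 h than at 0 h, where 10.2% of genes were, and they made up 17.2% of that list. Only 8 (1.62%) were called lower there, against 6.51% of genes. At 12 h against 0 h, 176 (35.6%, or 21.2% of that list) were higher, where 7.25% of genes were. Of 493 risen genes tested in deficiency, 128 (26.0%, or 19.4% of that list) were lower at 0 h than in both replete conditions, where 5.76% of genes were.

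Of 81 fallen genes that could be compared, 23 (28.4%, or 3.08% of that list) were lower at 4.5 h than at 0 h, where 6.51% of genes were. At 12 h against 0 h, 30 (37%, or 4.16% of that list) were lower, where 6.31% of genes were. Called higher than at 0 h were 7 (8.64%) at 4.5 h and 1 (1.23%) at 12 h, where 10.2% and 7.25% of genes were. At 0 h 28 of the 81 fallen genes (34.6%) were higher than in both replete conditions, where 5.58% of genes were, and 0 were lower. They made up 4.39% of the genes so called.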

How the data were processed

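The authors deposited 1 table with FPKM, a lower and an upper bound and a status per gene and condition, per the file headers. The submitters' processing notes name TopHat2 and Cuffdiff. Not given in the sources used here are the genome build, the level of the bounds and how the 4 stated replicates entered 1 value, and read depth is unknown. Libraries were stranded mRNA libraries, per the labels' protocols.

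From these values log2((3 h + 1)/(1.5 h + 1)) was computed with a pseudocount of 1 FPKM, which understates changes of low genes; x-fold values are plain FPKM ratios. A gene was called at a log2 ratio of at least 1 in size, with bounds that did not overlap, both statuses OK and a mean of at least 1 FPKM over 8 conditions. The code that makes the calls was tested on simulated data with known ratios. Calls describe the deposited values, which allow no test of replicates. Other pseudocounts, filters, fold thresholds, calls without bounds and scalings to equal totals or median of ratios were tried.

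The comparison and its 50 gene lists were chosen with earlier results of these data known. The lists for ER entry, ER folding, COPII, COPI, proteasome subunits, MCM and plastid division (7 in all) were chosen after values were seen, and some lists lost mismatched symbols at that point. Named genes were the 12 highest and lowest with a symbol, up to 4 called members per direction of lists with at least 2 calls (2 for the others), uncalled zinc, copper, iron, low-CO2 and carbonic anhydrase genes, and 2 genes without a symbol per direction. CHLD, CHLI1, GUN4, DVR1, HMO1, HMO2, RIR1, RIR3, PRM1, PRM3, LZY1B, AOF1 and ATM2 were named outside that rule, after their values were seen. Software was Python 3.11.15 with pandas 2.3.3, numpy 2.4.6 and matplotlib 3.10.9.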

Additional observations from a re-analysis of the deposited data

How the results depend on the processing

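No paired analysis was possible because the table holds 1 value per condition, and for the same reason no replicate could be left out. Rises and falls from 1.5 to 3 h numbered 849 and 159 with a pseudocount of 0.1 FPKM, 234 and 36 with 5 FPKM, 1373 and 670 at a fold threshold of 1.5, and 30 and 13 at 4. Equal totals gave 185 falls. From 0 to 1.5 h they numbered 794 and 497 with 5 FPKM, 2480 and 2270 at a fold of 1.5, and 293 and 155 at 4. From 3 to 4.5 h they numbered 107 and 24 with 0.1 FPKM, 12 and 4 with 5 FPKM, 293 and 190 at a fold of 1.5, and 1 and 0 at 4. Fewer calls with a larger pseudocount or fold follow from how these settings are built. Called members with equal totals were 9 of chlorophyll and heme synthesis, 8 of trafficking, 5 of proteasome and ubiquitin and 4 of acetate use. With pseudocounts of 0.1 and 5 FPKM, 26 and 3 cell cycle genes and 13 and 4 proteasome and ubiquitin genes were called, and with 5 FPKM 6 trafficking genes. Of 174 risen genes with a symbol, calls ended for 81 with 5 FPKM, 68 with equal totals and 27 with median-of-ratios scaling. Of 21 fallen ones, calls ended for 3, 0 and 0. No named call changed direction under the settings tried. From 0 to 1.5 h, equal totals turned an excess of rises into one of falls, with 1246 higher and 1298 lower. List medians near 0 changed sign as well. With equal totals the median turned from above to below 0 for all tested genes, cytosolic and mitochondrial ribosomes, respiration, carbonic anhydrases, chaperones, green-lineage, amino acid, nitrogen and mating and cell wall genes, and with median-of-ratios scaling for all tested genes and the last 3 of these lists. Leaving out genes that share their span, a setting chosen after the data were seen, removed 6 rises and 0 falls. The unknown depth limits genes of low FPKM most.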
